A study of Homo sapiens with 12 samples.

Results

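The keratin genes of TIGK cells were examined in the deposited RNA sequencing counts. They were taken as the protein-coding genes of the count table whose symbol is KRT, a number and at most a letter from A to C. This rule gave 55 genes of the 58735 in the table, with 29 type I and 26 type II keratins. Of these, 53 had a count in at least 1 of the 12 libraries, and 23 stayed under 10 counts in every library.

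Keratins are the intermediate filament proteins of epithelial cells, and each filament is built from pairs of a type I (acidic) and a type II (basic) keratin. In stratified epithelia, basal cells make KRT5 with KRT14, and cells that leave the basal layer change to KRT1 with KRT10 where the surface cornifies, or to KRT4 with KRT13 in non-cornifying oral mucosa. KRT6A, KRT6B, KRT16 and KRT17 are known from wounded, activated and rapidly growing keratinocytes, KRT8, KRT18 and KRT19 are known best from simple epithelia, and a separate set of keratins forms hair and nails.

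TIGK is a single line of human gingival keratinocytes immortalized by transfection of hTERT, the catalytic subunit of telomerase. All cells were kept at 48 mM glucose in a base medium that contained no Arg. Arg-treated cells received 500 µM Arg for 24 or 48 h, and control cells were cultured for the same times without it. Each of the 4 groups had 3 libraries of poly(A) RNA, named replicates A, B and C. The labels do not say whether these came from separate cultures, so the p-values measure only the spread between libraries.

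The libraries held 16542243 to 19040964 counts each. The 8 keratinocyte markers, among them KRT5 and KRT14, summed to 34210 to 46230 CPM in every library (counts scaled to the library's total with TMM factors). The lists of other cell types summed to at most 30.6 CPM for melanocytes (6 genes), 2.41 CPM for endothelial cells (5 genes), 3.88 CPM for immune cells (5 genes) and 7.62 CPM for Merkel cells (4 genes), and TYR and ATOH1 were at 0 throughout. The 8 fibroblast genes summed to 30.3 to 54.4 CPM at 24 h and to 72.8 to 103 CPM at 48 h. Most of this sum came from DCN (15.3 to 76.2 CPM over the libraries) and COL1A1 (10.8 to 27.0 CPM), while LUM and PDGFRB reached 2.35 and 1.75 CPM. COL1A2, COL3A1, PDGFRA and THY1 stayed under 10 counts in every library, and none of the 8 was at 0 throughout. The library labelled control 48 h replicate B stood apart from its group. Over 13192 genes, its root mean square log2 difference was 0.33 and 0.34 from control replicates A and C at 48 h, but 0.23 to 0.27 from the Arg libraries at 48 h. Over 25 keratins, these differences were 0.69 and 0.80 against 0.28 to 0.40. Results that rest on this library are given with and without it. Over the 25 keratins, control 24 h replicate B also stood apart. Its differences were 0.54 and 0.49 from control replicates A and C at 24 h, but 0.39 to 0.47 from the Arg libraries at 24 h. Over the 13192 genes, it was closer to its own group, at 0.28 and 0.29 against 0.30 to 0.33.

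The basal pair led the keratins of TIGK cells. Per kilobase of exonic length, KRT5 was the highest at 6632 CPM per kilobase over the 12 libraries, followed by its basal partner KRT14 at 4099 CPM per kilobase. KRT6A (2115), KRT19 (1646), KRT17 (952) and KRT13 (589) came next on the same scale. KRT5 (ENSG00000186081) lies on chromosome 12 of GRCh38 at chr12:52514575-52520687, and KRT14 (ENSG00000186847) lies on chromosome 17 at chr17:41582279-41586921. KRT16, KRT10, KRT8 and KRT18 followed at 278, 205, 193 and 168 CPM per kilobase, and the order of these 4 was not the same in every group. The deposited exonic length of KRT8 (6881 bases) and KRT15 (7069 bases) far exceeded that of their canonical transcripts (1784 and 1712 bases). With canonical lengths, KRT8 moved from rank 9 to rank 7 among the keratins and KRT15 from rank 13 to rank 11, and KRT19 (2767 CPM per kilobase) stood above KRT6A (2683).

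**Figure D1:**
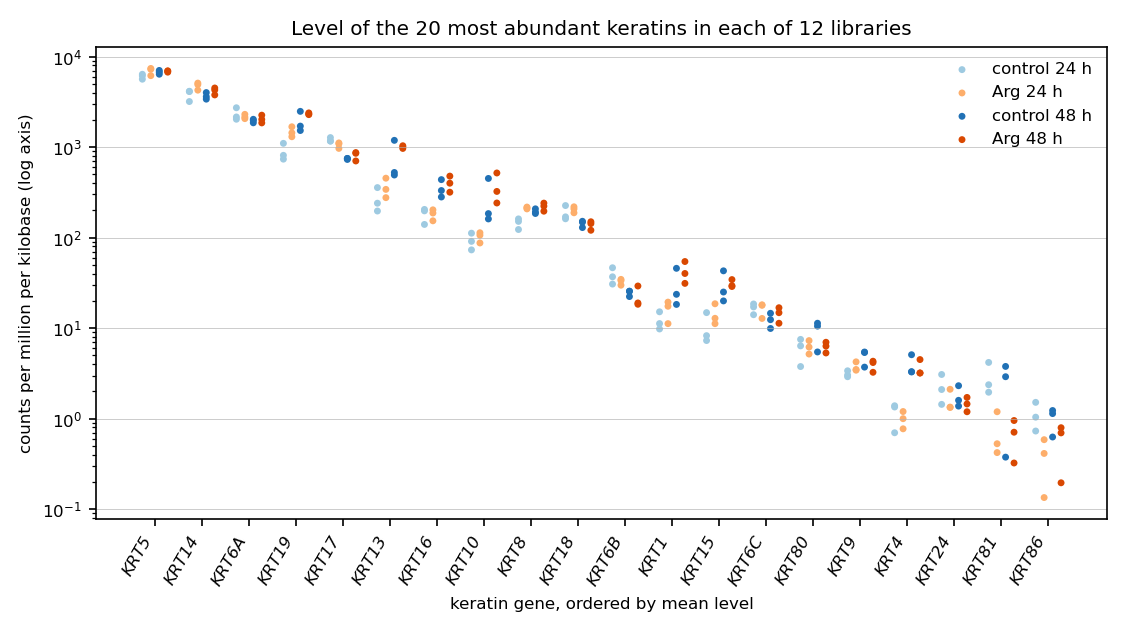
Level of the 20 most abundant keratins in CPM per kilobase of exonic length on a log axis, with 1 point for each of the 12 libraries, coloured by group. KRT5 and KRT14 lie above all others in their means (6632 and 4099), while KRT81 and KRT86 lie near 1.

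Near-identical copies limit how far some keratins can be read apart. KRT6A (chr12:52487174-52493257), KRT6B (chr12:52446651-52452126) and KRT6C (chr12:52468516-52473785) are neighbours on the minus strand of chromosome 12. Their coding sequences have 1692 bases each, and that of KRT6A was identical to KRT6B at 97.5% and to KRT6C at 97.9% of its bases. The coding bases 671 to 745 are shown because no window of that length holds more differences between KRT6A and KRT6B. Bases at which the 3 genes do not all have the same letter are in capitals.
KRT6A: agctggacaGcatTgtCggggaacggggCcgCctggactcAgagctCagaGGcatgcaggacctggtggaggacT
KRT6B: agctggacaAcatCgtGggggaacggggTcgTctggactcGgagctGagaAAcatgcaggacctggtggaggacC
KRT6C: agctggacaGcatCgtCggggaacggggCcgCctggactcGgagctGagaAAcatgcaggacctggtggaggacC
Of all stretches of 150 bases (the length of a read) in the canonical transcript, 9.26% of those of KRT6A, 12.7% of those of KRT6B and 16.3% of those of KRT6C also occur in another keratin gene. No such stretch was found in KRT5, KRT8, KRT10, KRT13, KRT15, KRT17, KRT18 or KRT19, and under 1% were found in KRT14 and KRT16. The 147 keratin pseudogenes of the table held 3163 counts in all, 0.026% of the counts of the keratin genes. How reads that map to several places were counted is not given in the sources used here. This low count therefore does not show that reads of keratins with similar pseudogenes were unaffected.

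The hair keratins KRT81 (chr12:52285913-52291534) and KRT86 (chr12:52249300-52309163) overlap on opposite strands and share 25.6% and 21.7% of their stretches with each other. Their longest identical coding stretch had 605 bases. The coding bases 636 to 710 of both are shown because they run across the end of that stretch, with the first 2 differences beyond it in capitals.
KRT81: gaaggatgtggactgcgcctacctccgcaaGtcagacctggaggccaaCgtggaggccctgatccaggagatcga
KRT86: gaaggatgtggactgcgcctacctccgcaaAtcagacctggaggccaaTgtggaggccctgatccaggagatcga
The strand setting of the counting is not given in the sources used here, so reads of this pair, of KRT8 and KRT18, whose spans overlap on opposite strands, and of KRT10 and TMEM99 (4137 counts against 96777 for KRT10) may have been assigned to either gene.

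Keratins took several percent of all counts. Their share was 4.46%, 5.26% and 5.07% in control replicates A, B and C at 24 h and 5.10%, 5.88% and 6.00% with Arg. At 48 h, it was 5.62%, 5.98% and 5.37% in the control and 6.42%, 6.14% and 5.81% with Arg. The 95% Wilson interval of a library's share reached at most 0.0116 percentage points to either side and covers counting error only. In bulk RNA, fewer cells of a type and less RNA per cell cannot be told apart. The group means were 4.93% ± 0.418, 5.66% ± 0.488, 5.66% ± 0.307 and 6.12% ± 0.305 (SD, n = 3). The groups overlapped between Arg and control at both times (exact two-sided permutation test, p = 0.2 at 24 h and p = 0.2 at 48 h). At both times, control replicates A and C lay below all Arg libraries, so the overlap rested on control replicate B. At 48 h, the log2 ratio of the group means was 0.11 with that library and 0.16 without it. At 24 h, it was 0.20 with control 24 h replicate B and 0.25 without it. In the control, all libraries at 48 h lay above those at 24 h (exact permutation p = 0.1, the smallest that 3 libraries against 3 allow), while the Arg libraries overlapped (exact permutation p = 0.3).

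The make-up of this share was dominated by KRT5, with 46.8% to 55.0% of a library's keratin counts. KRT14 took 14.7% to 18.9%, KRT6A 9.47% to 15.2%, and the 44 least abundant keratins together at most 0.494%. The ratio of type I to type II keratins, from counts per kilobase, was 0.738, 0.824 and 0.759 in control replicates A, B and C at 24 h and 0.857, 0.846 and 0.899 with Arg. All Arg libraries lay above all control libraries at 24 h (exact permutation p = 0.1). At 48 h, the ratio was 0.787, 1.09 and 0.763 in the control and 1.04, 1.02 and 0.956 with Arg. Control replicate B was the highest of these 6, so the groups overlapped (exact permutation p = 0.4). The log2 ratio of the group means was 0.19 with that library and 0.37 without it. Between 24 and 48 h, the ratio was higher in all Arg libraries at 48 h (exact permutation p = 0.1) and overlapped in the control (exact permutation p = 0.5), where the log2 ratio of means was 0.18 with control 48 h replicate B and 0.0026 without it.

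**Figure D2:**
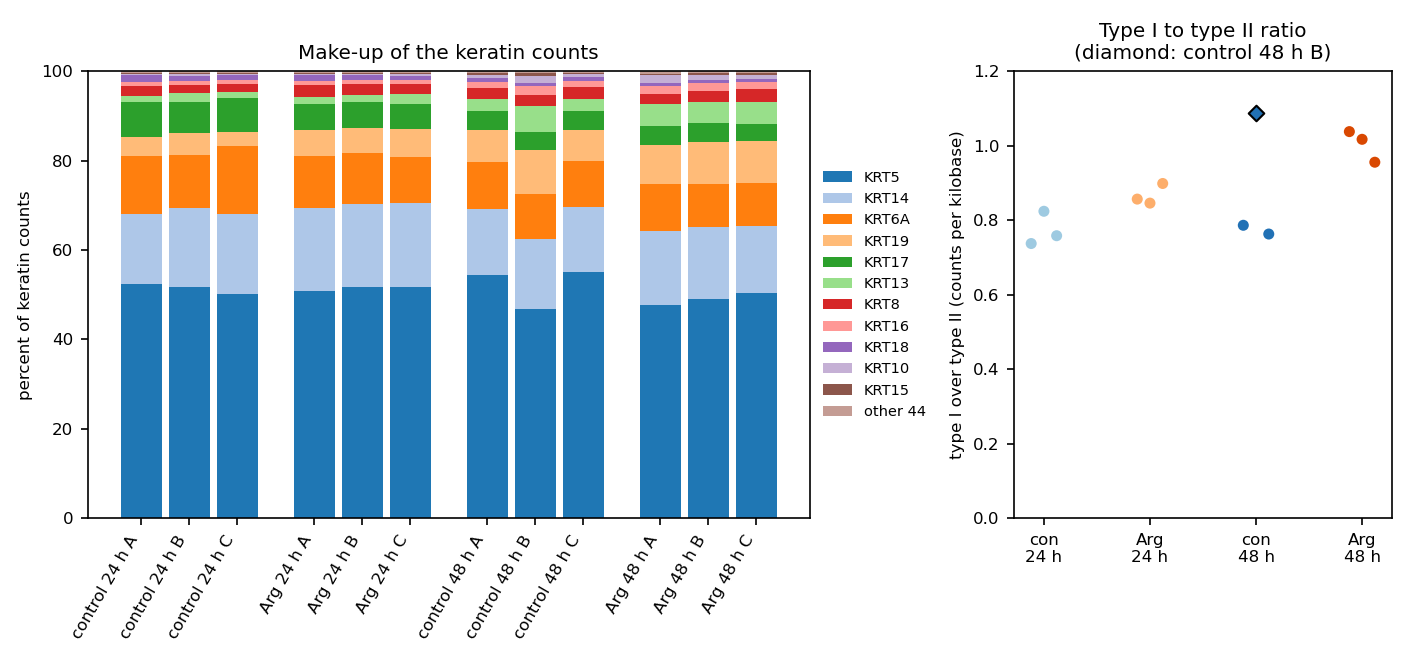
Left, percent of a library's keratin counts taken by each of 11 keratins and by the other 44, and right, the ratio of type I to type II keratins from counts per kilobase, with 1 bar or point per library. KRT5 takes 46.8% to 55.0% of the keratin counts, and control 48 h replicate B (diamond, 1.09) lies at the Arg level at 48 h.

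The comparison of Arg with control at 24 h addressed which keratins differed after a day with the amino acid. Among simple epithelial keratins, KRT19 and KRT8 rose, and the hair keratins KRT81 and KRT86 fell, while no basal, mucosal, cornifying or activation keratin passed the test. Of 25 keratins tested, 2 rose and 2 fell at an adjusted p under 0.05 (edgeR's quasi-likelihood test, Benjamini-Hochberg adjustment). Each is 8.0% of the keratins tested, against 2.79% of 14279 tested genes that rose and 3.84% that fell. At an unadjusted p under 0.05, 8 keratins were higher and 5 were lower, against 10.8% and 11.9% of all tested genes. The median log2 fold change of the 25 keratins was 0.0014, and that of all tested genes was 0.003.

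KRT19 (chr17:41523617-41528308), a type I keratin of simple and oral epithelia, had 1894, 2569 and 1719 CPM in control replicates A, B and C and 3039, 3357 and 3916 CPM with Arg. The lowest Arg library exceeded the highest control library. The log2 fold change was 0.74 (standard error (SE) 0.12, adjusted p = 0.00128, edgeR). KRT8 (chr12:52897187-52949954), the type II keratin of simple epithelia, had 1108, 1040 and 846 CPM in the control and 1429, 1497 and 1468 CPM with Arg. The Arg libraries were closely grouped above the control, with a log2 fold change of 0.55 (SE 0.089, adjusted p = 0.00118, edgeR). KRT18, the type I partner of KRT8, had 728, 520 and 546 CPM in the control and 705, 668 and 605 CPM with Arg. These overlapped, with a log2 fold change of 0.14 (SE 0.11, adjusted p = 0.462, edgeR).

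KRT81, a type II keratin of the hair cortex, had 149, 67 and 79 counts in control replicates A, B and C at 24 h and 41, 14 and 19 counts with Arg. The groups did not overlap although the counts were low. Its log2 fold change was −1.99 (SE 0.37, adjusted p = 0.00369, edgeR). KRT86, another type II hair keratin, had 67, 31 and 43 counts in the control and 25, 17 and 6 counts with Arg, with a log2 fold change of −1.54 (SE 0.45, adjusted p = 0.0480, edgeR). This call did not hold in each fit that left out a library. It was lost without control replicate A or C or without Arg replicate B or C, with adjusted p-values up to 0.244 from the same edgeR test. Of the 2 groups, only the control had at least 10 counts of KRT86 in every library, so its call and its size carry that selection. With at least 10 counts required in every library, KRT86 was not tested. KRT81 and KRT86 share identical stretches and overlap, so their values may not be independent.

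KRT14 had 7264, 9358 and 9432 CPM in the control and 9701, 11180 and 11610 CPM with Arg at 24 h. The groups did not overlap, but the log2 fold change of 0.32 (SE 0.096) missed the threshold in edgeR (adjusted p = 0.0571) and passed it in DESeq2 (adjusted p = 0.0320). KRT5, its partner, had 24120, 27340 and 26290 CPM in the control and 26410, 31060 and 31700 CPM with Arg. These groups overlapped at their edges, with a log2 fold change of 0.20 (SE 0.082, adjusted p = 0.161, edgeR). The activation keratins had log2 fold changes between −0.22 for KRT6B and 0.0014 for KRT16. Among them, KRT17 had 3651, 3646 and 3986 CPM in the control and 3028, 3480 and 3399 CPM with Arg. Its groups did not overlap, but the log2 fold change of −0.19 (SE 0.077, adjusted p = 0.15, edgeR) did not pass.
Control replicate B at 24 h was the highest of the 3 control libraries for KRT13, KRT15, KRT1 and KRT10. KRT13, for example, had 573, 1040 and 699 CPM in control replicates A, B and C and 805, 994 and 1321 CPM with Arg. Without control 24 h replicate B, 7 keratins rose (KRT1, KRT13, KRT14, KRT15, KRT19, KRT78 and KRT8) and 3 fell (KRT27, KRT81 and KRT86), against 4.42% and 6.02% of all tested genes. KRT13 then had a log2 fold change of 0.70 (adjusted p = 0.00204, edgeR) in place of 0.43 (adjusted p = 0.140). Without Arg replicate A, 5 keratins rose (KRT1, KRT14, KRT19, KRT5 and KRT8) and 2 fell, against 3.29% and 4.36% of all tested genes.

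**Figure D3:**
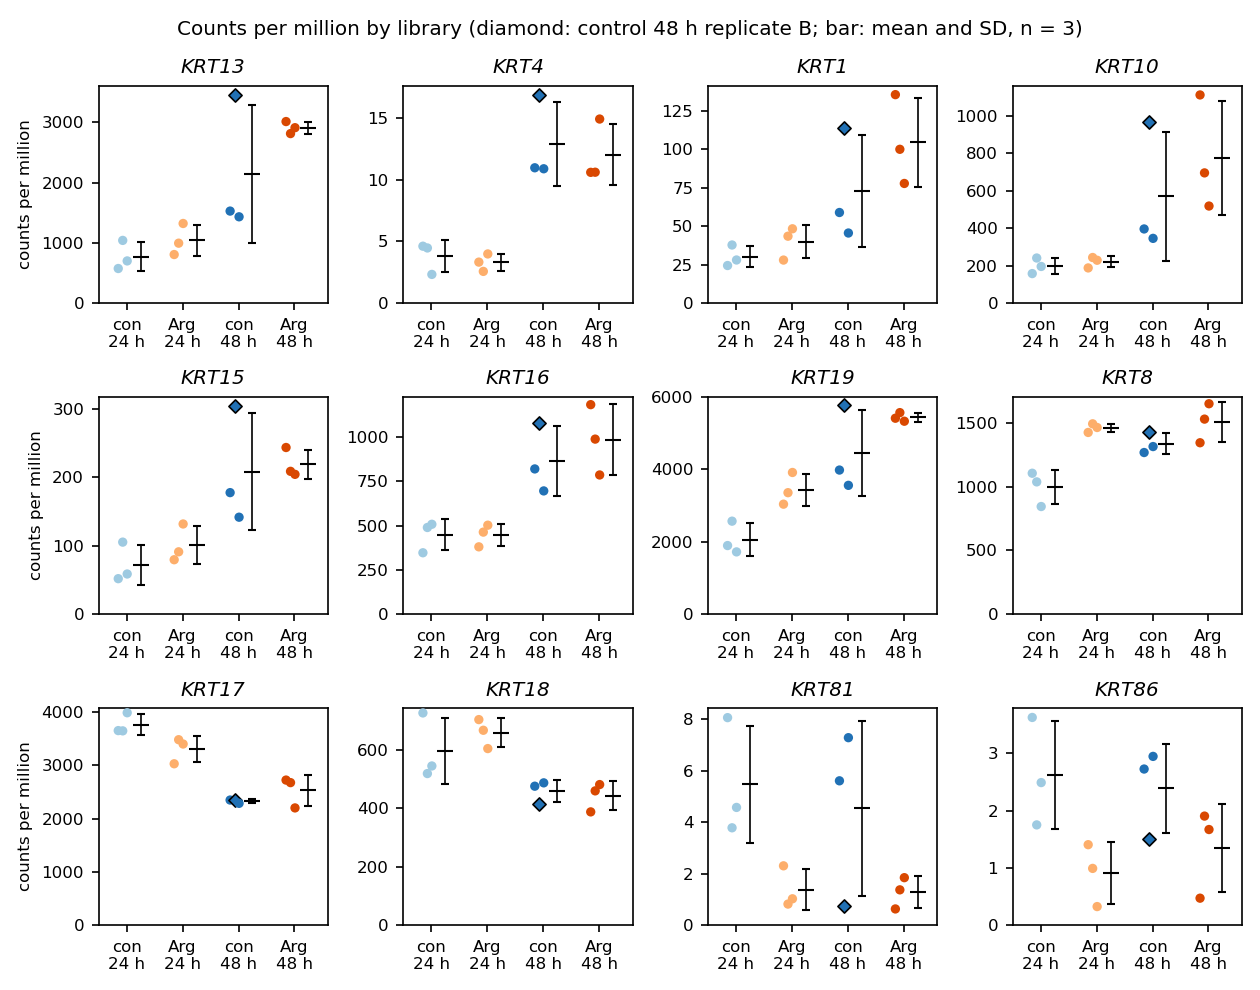
CPM of 12 keratins in each library, by group, on linear axes from 0, with the mean and SD of 3 libraries and control 48 h replicate B as a diamond. KRT19 and KRT8 are separated between control and Arg at 24 h, and the diamond lies with the Arg libraries at 48 h for KRT13 (3458 CPM) and KRT81 (0.726 CPM).

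At 48 h, the same comparison gave no keratin that passed the adjusted threshold in either direction. Of 26 keratins tested with edgeR, 0 rose and 0 fell, against 0% and 0.117% of 14562 tested genes, and DESeq2 also called 0 and 0. At an unadjusted p under 0.05, KRT14, KRT19 and KRT8 were higher and KRT80 and KRT81 were lower, 3 and 2 keratins against 5.94% and 7.49% of all tested genes. The median log2 fold change of the keratins was 0.067, and that of all tested genes was 0.0018.
These counts turned on control replicate B. Without it, 8 of 28 keratins rose (KRT1, KRT10, KRT13, KRT14, KRT15, KRT16, KRT19 and KRT8) and 4 fell (KRT31, KRT80, KRT81 and KRT9), against 7.76% and 8.17% of 14854 tested genes. No other library changed the counts when left out. Among the falls, KRT31 had 11 and 14 counts in control replicates A and C and 0, 1 and 4 counts with Arg. It entered that test only through these control libraries, so its call carries that selection. With all 6 libraries, KRT31 was not tested at 48 h.

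KRT13 (chr17:41500981-41505705), the type I keratin of the upper layers of oral mucosa, had 1527, 3458 and 1432 CPM in control replicates A, B and C at 48 h and 3014, 2814 and 2912 CPM with Arg. Control replicate B was the highest of all 6, and control replicates A and C lay below all Arg libraries. The log2 fold change was 0.44 (SE 0.25, adjusted p = 0.463, edgeR) with replicate B and 0.98 (SE 0.052, adjusted p = 5.03e-12) without it. KRT10, the type I keratin of cornifying upper layers, had 395, 966 and 345 CPM in the control and 1110, 694 and 517 CPM with Arg. Its log2 fold change was 0.44 (SE 0.34, adjusted p = 0.596, edgeR) with replicate B and 1.07 (SE 0.17, adjusted p = 0.000151) without it. KRT1, the partner of KRT10, had 58.9, 114 and 45.5 CPM in the control and 136, 99.96 and 77.7 CPM with Arg. In KRT10 and KRT1, control replicate B lay within the range of the Arg libraries and control replicates A and C lay below it.

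KRT19 had 3983, 5795 and 3560 CPM in the control at 48 h and 5417, 5572 and 5334 CPM with Arg. As for KRT13, replicate B of the control was the highest value. Its log2 fold change was 0.29 (SE 0.13, adjusted p = 0.369, edgeR) with that library and 0.53 (SE 0.050, adjusted p = 1.29e-07) without it. KRT80, a type II keratin found near desmosomes, had 45.9, 23.8 and 49.3 CPM in the control and 23.2, 27.6 and 30.4 CPM with Arg. KRT81 had 107, 14 and 136 counts in the control and 12, 23 and 32 counts with Arg. For these, replicate B lay as low as the Arg libraries. Without it, the log2 fold changes were −0.82 for KRT80 (adjusted p = 4.32e-06, edgeR) and −2.35 for KRT81 (adjusted p = 2.14e-05, edgeR), against −0.56 (adjusted p = 0.289) and −1.84 (adjusted p = 0.241) with it.
KRT5 did not follow this pattern, with log2 fold changes of 0.028 (SE 0.044) with replicate B and −0.0053 (SE 0.039) without it. KRT4, the mucosal partner of KRT13, had −0.11 (SE 0.20) and 0.14 (SE 0.16), neither past the threshold. The mitochondrial share of counts was 1.55% in control 48 h replicate B, 0.906% and 0.707% in replicates A and C, and 1.14% to 1.31% with Arg. Its part in these results was not tested.

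**Figure D4:**
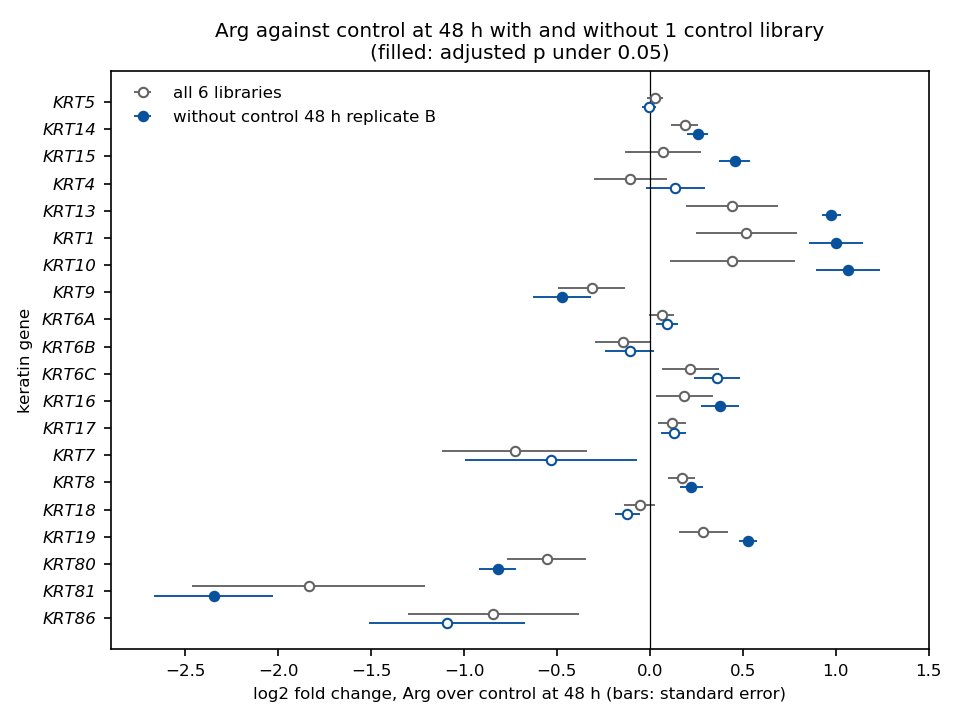
Log2 fold change of 20 keratins between Arg and control at 48 h with its standard error, from all 6 libraries (grey) and without control 48 h replicate B (blue), with filled points for an adjusted p under 0.05. Without that library, KRT13 moves from 0.44 to 0.98 and KRT81 from −1.84 to −2.35, while KRT5 stays near 0.

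Whether the Arg effect differed between 24 and 48 h was tested as an interaction over all 12 libraries. Of 29 keratins tested with edgeR, 0 had a higher and 0 a lower effect at 48 h, against 0.0132% and 0% of 15148 tested genes, and DESeq2 gave 0 and 0. At an unadjusted p under 0.05, KRT17 and KRT27 were higher and KRT19, KRT8 and KRT9 were lower, against 3.06% and 3.8% of all tested genes. The differences were −0.45 for KRT19 (SE 0.20, adjusted p = 0.708), −0.38 for KRT8 (SE 0.12, adjusted p = 0.573) and 0.31 for KRT17 (SE 0.11, adjusted p = 0.606), on the log2 scale in edgeR. Without control 48 h replicate B, the difference of KRT19 was −0.21 (SE 0.15), and again 0 keratins passed. With any other library left out, the count also stayed at 0 in both directions.

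Between 24 and 48 h, KRT4 and KRT13 of the mucosa, KRT1 and KRT10 of cornifying layers, basal KRT15, KRT16 and KRT19 rose in both media, and KRT17, KRT18 and KRT6B fell. In the control, 9 of 28 keratins rose and 4 fell (edgeR, adjusted p under 0.05), against 9.9% and 10% of 14449 tested genes. At an unadjusted p under 0.05, 13 were higher and 7 lower, against 17.1% and 17% of all tested genes. Without control 48 h replicate B, 10 rose and 4 fell (7.81% and 8.6% of all tested genes), and without control 24 h replicate B, 11 rose and 5 fell (10.7% and 11.6%). With Arg, 7 of 25 rose and 3 fell, against 14.3% and 14% of 14398 tested genes. At an unadjusted p under 0.05, 8 were higher and 4 lower, against 19.3% and 19.2% of all tested genes. Without Arg 24 h replicate A, 7 rose and 5 fell, with KRT14 and KRT6C in addition, against 11.8% and 12.9%. The median log2 fold change of the keratins was 0.16 in the control and 0.046 with Arg, and that of all tested genes was 0.013 and 0.0009. These 2 comparisons share no library. All 7 keratins that rose with Arg were among the 9 of the control, and all 3 that fell were among its 4. The share of all tested genes called in both media was not computed, so this overlap cannot be read as particular to keratins. The fibroblast genes given above were also higher at 48 h, and their part in these results was not tested.

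Both mucosal keratins rose in both media. In the control, KRT13 rose from 573, 1040 and 699 CPM to 1527, 3458 and 1432 CPM, and with Arg from 805, 994 and 1321 CPM to 3014, 2814 and 2912 CPM. No library at 24 h reached the level of those at 48 h in the same medium. Its log2 fold change was 1.48 (SE 0.30, adjusted p = 0.00700, edgeR) in the control, 0.94 (adjusted p = 0.00246) there without control 48 h replicate B, and 1.49 (SE 0.11, adjusted p = 2.56e-08) with Arg. KRT4 (chr12:52806549-52814551) was far less abundant, at 85, 79 and 40 counts in the control at 24 h and 209, 325 and 203 counts at 48 h. With Arg, it had 59, 44 and 74 counts at 24 h and 203, 178 and 259 counts at 48 h. Its log2 fold changes of 1.76 (SE 0.26, adjusted p = 0.00217, edgeR) and 1.87 (SE 0.20, adjusted p = 1.54e-06) were the largest rises of a keratin that passed the test in each medium. Per kilobase, the type I member of this pair exceeded the type II member, at 589 against 2.42 CPM per kilobase over the 12 libraries.

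Of the 8 keratins listed as cornifying, a list that also holds keratins of the cornea, which does not cornify, 4 were tested. KRT1, KRT10 and KRT9, a type I keratin of palm and sole, rose in the control, and KRT1 and KRT10 rose with Arg. KRT10 (chr17:40818117-40822595) had 157, 240 and 195 CPM in the control at 24 h and 187, 243 and 228 CPM with Arg. All libraries at 48 h, given above, lay higher. The log2 fold change was 1.53 (SE 0.31, adjusted p = 0.00721, edgeR) in the control, 0.91 (adjusted p = 0.000740) without control 48 h replicate B, and 1.82 (SE 0.17, adjusted p = 3.27e-07) with Arg. KRT1, at 24.4, 37.7 and 27.98 CPM in the control and 27.9, 43.5 and 48.3 CPM with Arg at 24 h, was also lower in each of these than in any library of the same medium at 48 h. It rose by 1.28 (SE 0.28, adjusted p = 0.00907, edgeR) and 1.39 (SE 0.17, adjusted p = 6.27e-06) on the log2 scale. Without control 48 h replicate B, the value in the control was 0.80 (adjusted p = 0.00418), and without control 24 h replicate C, KRT1 did not pass (adjusted p = 0.0534, edgeR). KRT9 rose by 0.64 (SE 0.18, adjusted p = 0.0303, edgeR) in the control, but this call was lost in 5 of the 6 fits that left out a library. Without control 24 h replicate A, KRT1, KRT10, KRT13 and KRT9 no longer passed in the control, and 5 keratins rose and 3 fell, against 2.85% and 2.74% of all tested genes. The log2 fold changes of KRT13 and KRT10 were then 1.30 (adjusted p = 0.0517) and 1.39 (adjusted p = 0.0533, edgeR).

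The basal keratins did not move as a group. KRT15, a type I keratin of basal cells, rose by 1.54 (SE 0.28, adjusted p = 0.00480, edgeR) in the control and by 1.12 (SE 0.13, adjusted p = 2.25e-06) with Arg. It had 51.6, 105 and 58.5 CPM at 24 h and 177, 304 and 141 CPM at 48 h in the control, and 79.3, 90.9 and 132 CPM and 243, 208 and 204 CPM with Arg. At 48 h, KRT5 had 30140, 27380 and 28880 CPM in the control and 29840, 29580 and 28860 CPM with Arg, within the range of the Arg libraries at 24 h. Its log2 fold change with time was 0.16 (SE 0.064, adjusted p = 0.105, edgeR) and −0.014 (SE 0.062, adjusted p = 0.899), and KRT14 had −0.053 (SE 0.098) and −0.18 (SE 0.072), neither past the threshold.

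The activation keratins split. KRT16 (chr17:41609778-41615899) had 346, 489 and 507 CPM in the control at 24 h and 820, 1082 and 696 CPM at 48 h. With Arg, it had 380, 463 and 502 CPM and 1183, 988 and 786 CPM. The times did not overlap in either medium, and KRT16 rose by 0.96 (SE 0.16, adjusted p = 0.00341, edgeR) and 1.14 (SE 0.11, adjusted p = 5.22e-07) on the log2 scale. KRT17 (chr17:41619441-41624842) had 3651, 3646 and 3986 CPM in the control at 24 h and 2347, 2343 and 2285 CPM at 48 h, and 3028, 3480 and 3399 CPM and 2722, 2674 and 2199 CPM with Arg. It fell by 0.69 (SE 0.063, adjusted p = 0.000275, edgeR) and 0.38 (SE 0.076, adjusted p = 0.000906). KRT6B had 70.1, 84.3 and 106 CPM at 24 h and 58.4, 58.4 and 51.0 CPM at 48 h in the control, and 76.5, 78.9 and 68.1 CPM and 66.7, 43.3 and 41.9 CPM with Arg. All libraries at 48 h lay below those at 24 h, and KRT6B fell by 0.63 (SE 0.13, adjusted p = 0.00784, edgeR) and 0.55 (SE 0.13, adjusted p = 0.00333), a call that DESeq2 did not make with Arg (adjusted p = 0.0666). KRT6A and KRT6C did not pass in edgeR in either medium. In the control, KRT6C had a log2 fold change of −0.43 (SE 0.14, adjusted p = 0.0518, edgeR) and passed in DESeq2 (adjusted p = 0.0204) and without control 48 h replicate B, while KRT6A had −0.24 (SE 0.095, adjusted p = 0.102, edgeR). All control libraries of KRT6A at 48 h (5429 to 5935 CPM) lay below those at 24 h (5946 to 7959 CPM). The values of KRT6B carry the limit of shared stretches given above.

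Among the simple epithelial keratins, KRT19 rose in both media, by 1.11 (SE 0.17, adjusted p = 0.00261, edgeR) in the control and 0.66 (SE 0.073, adjusted p = 1.69e-06) with Arg. KRT18, given above at 24 h, had 476, 416 and 488 CPM at 48 h in the control and 388, 460 and 482 CPM with Arg. The Arg libraries at 48 h all lay below those at 24 h. KRT18 fell by 0.57 (SE 0.077, adjusted p = 1.89e-05, edgeR) with Arg. In the control, it fell by 0.37 (SE 0.12, adjusted p = 0.0401), a call that was lost in 5 of the 6 fits that left out a library, with adjusted p-values up to 0.173. KRT8, its partner, had 1271, 1431 and 1318 CPM at 48 h in the control and 1348, 1534 and 1655 CPM with Arg, so that the control libraries at 48 h came near the Arg level at 24 h. KRT8 rose by 0.43 (SE 0.095, adjusted p = 0.0103, edgeR) in the control and had a log2 fold change of 0.046 (SE 0.068, adjusted p = 0.659) with Arg. KRT7 was low, at 7 to 41 counts in a library, and KRT23 had 0 to 14 counts.

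**Figure D5:**
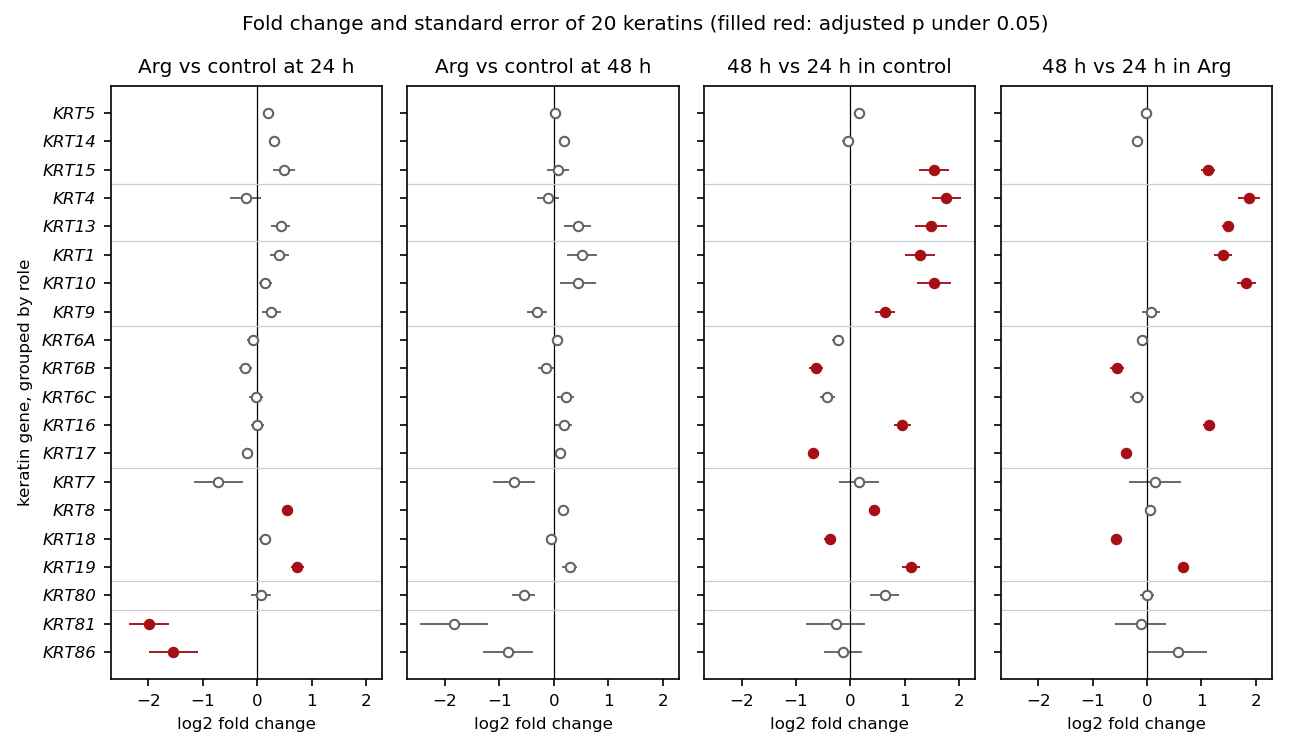
Log2 fold change with its standard error of 20 keratins in the 4 pairwise comparisons, with filled red points for an adjusted p under 0.05 and lines between the groups of keratins. KRT4, KRT13, KRT1, KRT10, KRT15, KRT16 and KRT19 are filled on the right side in both comparisons of time, and no point is filled for Arg at 48 h.

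KRT27, a type I keratin of the inner root sheath of hair, had the most negative log2 fold change with time among the tested keratins, from very low counts. It had 39, 21 and 55 counts in the control at 24 h and 1, 0 and 5 counts at 48 h, with a log2 fold change of −4.27 (SE 0.72, adjusted p = 0.00357, edgeR). It entered this test only through its counts at 24 h, so its call and its size carry that selection. With at least 10 counts required in every library, 3 keratins fell in the control and KRT27 was not tested. With Arg, it had 16, 20 and 7 counts at 24 h and 8, 6 and 3 counts at 48 h and was not tested because of its low counts. The promoters of KRT10, which rose with time, and KRT27, which fell, are shown as the 250 bases before the start of the gene (RefSeq, GRCh38.p14, minus strand of chromosome 17). That of KRT10 spans chr17:40822615-40822864 and that of KRT27 spans chr17:40782551-40782800, with TATAAA in capitals.
KRT10: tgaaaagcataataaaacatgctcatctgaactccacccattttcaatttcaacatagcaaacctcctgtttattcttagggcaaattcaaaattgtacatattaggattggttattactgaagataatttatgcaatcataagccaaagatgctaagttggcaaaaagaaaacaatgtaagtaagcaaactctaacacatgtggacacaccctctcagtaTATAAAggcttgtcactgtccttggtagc
KRT27: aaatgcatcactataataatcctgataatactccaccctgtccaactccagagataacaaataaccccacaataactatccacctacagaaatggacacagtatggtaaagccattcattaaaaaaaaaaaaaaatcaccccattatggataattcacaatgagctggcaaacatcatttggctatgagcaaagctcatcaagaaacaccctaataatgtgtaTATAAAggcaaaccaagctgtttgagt
The motif began 29 bases before the start in KRT10 and 27 bases before it in KRT27. The windows of KRT5 and of KRT4, which also rose with time, held no TATAAA and are not shown. RefSeq's table held 38 promoters of 34 keratin genes. On either strand, TATAAA occurred in 21 of these 38 promoters and in 10.7% of all 35116 promoters. TGANTCA, the AP-1 motif, occurred in 0 of the 38 and in 6.57% of all promoters, and GGGCGG in 4 of the 38 and in 42.6% of all. These are matches of letters in this window and not binding sites.

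Most of the remaining keratins were at the edge of detection. Of 17 hair and nail keratins, 5 entered at least 1 test, and the highest total over the 12 libraries was 693 counts, for KRT81. Among the 9 keratins of the inner root sheath and companion layer, KRT26 and KRT73 had 0 counts in all 12 libraries, which allows a level of up to 0.0138 CPM over the libraries (3 counts). The epithelial keratins KRT24 (39 to 100 counts in a library) and KRT78 (4 to 46 counts) were tested in every comparison. In the edgeR fits used throughout, neither passed in any of the 5. Their log2 fold changes for Arg at 24 h were −0.46 and 1.33 (adjusted p = 0.377 and 0.0992, edgeR). With time in the control, KRT78 had 1.39 (SE 0.47, adjusted p = 0.0582, edgeR), and DESeq2 called it as higher.

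Genes that anchor, accompany or regulate keratin filaments were taken from 4 lists. Of all tested genes in edgeR, 2.79% rose and 3.84% fell with Arg at 24 h (unadjusted 10.8% and 11.9%). At 48 h, these shares were 0% and 0.117% (unadjusted 5.94% and 7.49%), and 7.76% and 8.17% without control 48 h replicate B. With time, 9.9% rose and 10% fell in the control, and 14.3% and 14% with Arg. Several counts of the lists lie near these shares. Of the 19 genes of filament attachment (desmosomes, plakins and hemidesmosomes), 18 were tested for Arg at 24 h. In edgeR, 2 rose and 1 fell, and 9 were higher and 2 lower at an unadjusted p under 0.05. PKP1 and PPL, which link filaments to desmosomes, rose by 0.54 (SE 0.12, adjusted p = 0.0140, edgeR) and 0.54 (SE 0.14, adjusted p = 0.0255), and the integrin ITGA6 fell by 0.40 (SE 0.084, adjusted p = 0.00840). DESeq2 called ITGA6 but neither PKP1 nor PPL, and called DSG1, a desmosomal cadherin, as higher. With time, 12 of 18 rose and 2 fell in the control, and 13 of 19 rose and 3 fell with Arg, with median log2 fold changes of 0.59 and 0.72 against 0.013 and 0.0009 over all tested genes. With Arg at 48 h, 0 of 19 passed in edgeR and 1 in DESeq2 (PPL), 5 were higher and 1 lower at an unadjusted p under 0.05, and 11 rose and 1 fell without control 48 h replicate B.
Of the 17 genes of differentiation and the cornified envelope, 0 of 12 tested passed with Arg at 24 h in edgeR and DESeq2, with 1 lower at an unadjusted p under 0.05. At 48 h, 0 of 13 passed in edgeR and 1 in DESeq2 (SPRR3, lower), with 1 higher and 2 lower at an unadjusted p under 0.05. Leaving out control 48 h replicate B gave 1 that rose and 2 that fell in edgeR. With time, 2 of 13 rose and 1 fell in the control, and 4 rose and 3 fell with Arg, with median log2 fold changes of 0.29 and 0.25. Of the 10 epithelial transcription factors, GRHL2 rose by 0.35 (SE 0.086, adjusted p = 0.0205, edgeR) and KLF4 fell by 0.45 (SE 0.094, adjusted p = 0.00774) with Arg at 24 h. With time, 4 of the 10 rose in the control and 6 with Arg, with medians of 0.37 and 0.31. At 48 h, 0 of the 10 passed with Arg in edgeR and DESeq2, with 1 higher at an unadjusted p under 0.05. When control 48 h replicate B was left out, 3 of the 10 rose and 0 fell in edgeR. Of 13 other intermediate filament genes, 8 were tested. The lamins LMNB1 and LMNA rose by 0.48 (SE 0.076, adjusted p = 0.000968, edgeR) and 0.37 (SE 0.085, adjusted p = 0.0142) with Arg at 24 h, and the neurofilament gene NEFL fell by 0.92 (SE 0.18, adjusted p = 0.00460). At 48 h, 0 of the 8 passed with Arg in edgeR and DESeq2, with 2 higher and 1 lower at an unadjusted p under 0.05. In edgeR without control 48 h replicate B, 2 of the 8 rose and 0 fell.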

How the data were processed

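RNA sequencing counts of TIGK cells were used, with 12 libraries in 4 groups taken from their labels. The authors removed low-quality reads with fastp, mapped to GRCh38/hg38 with STAR and counted per gene with featureCounts. They deposited raw read counts per gene, not normalized, with the gene's coordinates and exonic length. Tool versions, the annotation release and the strand setting are not given in the sources used here, and 0 columns of counts were left out. Libraries held 16542243 to 19040964 counts.

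Counts were fitted with edgeR 4.0.16 in R 4.3.3 (TMM factors, filterByExpr on low counts, the quasi-likelihood test and no block), for 2 groups at a time and for all 12 libraries in the interaction, with Benjamini-Hochberg adjustment over all tested genes and a threshold of 0.05. The filter passed 29 of the 55 keratins in at least 1 fit and 26 in none. The standard error is the absolute log2 fold change divided by the square root of the F statistic. CPM were computed with TMM factors over all 12 libraries. Single values per library were compared by exact permutation tests. The fits were tested on simulated data. Of 97 changes of 1 on the log2 scale simulated for Arg against control at 48 h, 82 were recovered, with 19 false calls among 14562 genes. For the same size, 77 of 100 were recovered for Arg at 24 h, 74 of 98 for time in the control, 78 of 96 for time with Arg, and 55 of 99 for the interaction. The simulated libraries varied gene by gene, and none deviated from its group across genes as control 48 h replicate B did. The recovery for Arg at 48 h therefore does not measure what the real comparison could detect.

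The keratins and the lists were chosen with earlier results of these data known. Keratins named are those with an adjusted p under 0.05 in any comparison, the 10 highest per kilobase, and fixed members of each role. Of other lists, up to 4 genes with the smallest adjusted p for Arg are named. Other keratins named (KRT24, KRT26, KRT73 and KRT78, DSG1 and SPRR3, and those listed when a library was left out) were chosen after their values were seen. Alternatives were DESeq2 1.42.0, its size factors in edgeR, library size only, TMM without keratins, 2 other filters, a single model, a replicate block, other units of the share and ratio, and leaving out each library. Canonical transcript lengths (GENCODE v44) were added after seeing the data.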

Additional observations from a re-analysis of the deposited data

How the results depend on the processing

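DESeq2, its size factors in edgeR, library size only and TMM without keratins left each count of called keratins within 1.5 times of its value. Without a filter on low counts, 7 keratins rose with Arg at 24 h, 5 rose and 2 fell at 48 h, and 3 had a lower effect at 48 h than at 24 h (KRT19, KRT8 and KRT80), against 2.09%, 0.73%, 1.37% and 0.124% of all genes fitted. The cause was not tested. With at least 10 counts in every library, and with all 12 libraries in a single model, 1 keratin fell with Arg at 24 h, KRT81. Correlations of the deviations of same-lettered libraries ran from −0.115 to 0.225. Only between the control times were all positive (0.106, 0.225 and 0.0691 for A, B and C), and in no comparison were all 3 letters above 0.1, so the letters were not taken as pairs. With the replicate letter as a block, 5 keratins rose with Arg at 24 h (KRT13, KRT14 and KRT15 in addition, against 2.65% of all tested genes), KRT6A and KRT6C fell in the control with time (adjusted p = 0.0320 and 0.0150, edgeR), and every other count stayed within 1.5 times of its value. With each library left out in turn, 2 to 7 keratins rose and 1 to 3 fell with Arg at 24 h, 0 to 8 rose and 0 to 4 fell at 48 h, 5 to 11 rose and 3 to 5 fell with time in the control, and 7 to 8 rose and 3 to 5 fell with time in Arg. The shares of all tested genes that rose and fell also changed between these fits. For Arg at 24 h, they were 4.42% and 6.02% without control 24 h replicate B. At 48 h, they were 0% and 0.117% with all 6 libraries and 7.76% and 8.17% without control 48 h replicate B. For time in the control, they were 2.85% and 2.74% without control 24 h replicate A and 10.7% and 11.6% without control 24 h replicate B. No direction was reversed among the calls of named keratins. Keratins of under about 50 counts in a library, the hair keratins above all, are limited by depth.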
